A study of Mus musculus with 26 samples.

Results

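The transcripts described here belong to 30 genes known from Sertoli cells. They come from a list of names (niche signals, hormones and receptors, transcription factors, junction and cytoskeletal proteins, secreted proteins). The list was chosen with earlier results of these data known. All 30 were found among the 24682 gene symbols of every count file. Sertoli cells are the somatic cells of the seminiferous tubule. They surround the developing germ cells, close the blood-testis barrier with tight junctions, supply signals such as stem cell factor and GDNF to spermatogonia, and answer follicle-stimulating hormone and testosterone. They stop dividing early in postnatal life, while the germ cells around them multiply and then differentiate.

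RNA came from testes of C57BL/6 mice at postnatal day 21 and from germ cells sorted out of testis, whose titles also give 21 days and whose labels name no strain. The study compared Nkapl knockout with wild type, Sox30 knockout with wild type, and homozygotes of an Nkapl allele called TGdel (Nkapl TGdel/TGdel) with wild type, each in a testis set of its own, and it compared pachytene spermatocytes and round spermatids of Nkapl knockout with those of wild-type mice. What each knockout or the TGdel allele removes, whether a knockout is limited to a cell type, and whether wild types are littermates is not in the labels. Counted by the library name in each column heading, the Nkapl set held 3 wild-type and 2 knockout libraries, the Sox30 set 3 wild-type and 2 knockout libraries, the TGdel set 2 wild-type and 3 TGdel libraries, and each of the 4 sorted groups 2 libraries. In 15 of the 18 testis files the heading named another sample than the record. For 4 libraries heading and record disagreed on the group: TGdel 3, the second wild type of its set, and the wild-type libraries numbered 3 of the Nkapl set and of the Sox30 set. In each testis set a pair of files held the same values and was counted as 1 library. The design text calls the samples of each group biological triplicates, and nothing says that the 2 sorted libraries of a group came from separate mice, so p-values there may measure technical spread.

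Libraries of the Nkapl set held 20120729 to 25514132 counts each, those of the Sox30 set 34167576 to 40010106, those of the TGdel set 16469667 to 17822056, and the sorted cells 18155299 to 19569272. Nkapl measured 74.9, 79.5 and 79.9 CPM (counts relative to the scaled library total) in wild-type and 60.8 and 57.8 CPM in Nkapl knockout testis, a log2 difference of -0.40 ± 0.05 (SE, adjusted p = 2.96e-06). Sox30 measured 77.6, 86.2 and 72.4 CPM in wild-type and 44.7 and 61.5 CPM in Sox30 knockout testis (-0.57 ± 0.15, adjusted p = 0.171). In the TGdel set Nkapl measured 101 and 103 CPM in wild type and 107, 118 and 126 CPM in TGdel testis, with every mutant above both wild types (0.20 ± 0.09, adjusted p = 0.328). In sorted spermatids it was 88.4 and 90.3 CPM in wild type and 24.6 and 23.6 CPM in knockout. In sorted spermatocytes it went against the labels, at 90.1 and 86.0 CPM in the libraries labelled wild type and 127 and 125 CPM in those labelled knockout. Every adjusted p here is from edgeR's quasi-likelihood test with Benjamini-Hochberg adjustment over all genes tested, two-sided, unless another tool is named, and a gene is said to rise or fall where it is under 0.05.

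Levels were compared between genes after counts were divided by exonic length. In the wild type of the Nkapl set, Clu, which encodes the secreted chaperone clusterin, led with 290.3 to 297.5 CPM per kilobase. Next came the protease inhibitor gene Cst9 (115.5 to 122.6), the inhibin alpha gene Inha (92.2 to 103.9), Aard (73.7 to 86.3), the related gene Cst12 (73.9 to 75.2) and the claudin gene Cldn11 (68.0 to 72.8), in the same unit. The ranges of the libraries separated Clu, Cst9 and Inha from each other, while those of Aard and Cst12 overlapped, with Cldn11 below both. The defining regulator Sox9 stood at 15.1 to 15.9 CPM per kilobase and the follicle-stimulating hormone receptor gene Fshr at 4.96 to 5.77. At the bottom were Gdnf (0.952 to 1.23), the activin subunit gene Inhba (0.546 to 0.629) and the keratin gene Krt18 (0.474 to 0.584), the last overlapping Inhba. Every member had counts in every testis library.

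Clu ranked first in the wild type of each set, but the order below it was not the same in the 3 sets. With all 23 libraries scaled together, the androgen-regulated X-linked homeobox gene Rhox5 stood at 25.6 to 32.7 CPM in the TGdel set and at 3.8 to 6.8 CPM in the Nkapl and Sox30 sets. Aard (353 to 372 against 85.4 to 119 CPM), the cathepsin L gene Ctsl (570 to 675 against 215 to 297 CPM) and Cst12 (123 to 157 against 41.4 to 50.1 CPM) were higher in the TGdel set as well, and Sox9 was lower there (25.7 to 32.5 against 37.7 to 75.5 CPM). These gaps lie between sets, wild types included, and the ribosomal RNA transcript Rn45s also took 2.78 to 5.53% of counts in the Nkapl and Sox30 sets and 0.0598 to 0.497% in the TGdel set. What set the sets apart was not tested, and genotypes are compared within a set only.

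Promoter sequences are shown for 4 members: Shbg, Gja1 and Cldn11, which rose together in Nkapl knockout testis, and Fshr, which passed in no comparison. Each is the 250 bases before the start in RefSeq's GRCm38.p6, written 5′ to 3′ in the direction of the gene. For Shbg, Cldn11 and Fshr this stretch ends where the GENCODE gene begins, and for Gja1 it ends upstream of the GENCODE start at 56377330. Capitals mark the matches, on either strand, to the motifs searched: the GATA motifs AGATAA and TGATAA, the SOX motifs AACAAT and ACAAAG, the cAMP response half-site TGACG, the E-box CACGTG and the androgen response half-site AGAACA. Shbg lies at chr11:69617906-69618155 (minus strand), Gja1 at chr10:56377050-56377299 (plus strand), Cldn11 at chr3:31149670-31149919 (plus strand) and Fshr at chr17:89200676-89200925 (minus strand).
Shbg: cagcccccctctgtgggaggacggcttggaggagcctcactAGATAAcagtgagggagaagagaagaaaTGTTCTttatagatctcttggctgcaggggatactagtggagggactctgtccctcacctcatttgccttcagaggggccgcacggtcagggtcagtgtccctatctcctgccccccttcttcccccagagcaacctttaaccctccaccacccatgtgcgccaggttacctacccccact
Gja1: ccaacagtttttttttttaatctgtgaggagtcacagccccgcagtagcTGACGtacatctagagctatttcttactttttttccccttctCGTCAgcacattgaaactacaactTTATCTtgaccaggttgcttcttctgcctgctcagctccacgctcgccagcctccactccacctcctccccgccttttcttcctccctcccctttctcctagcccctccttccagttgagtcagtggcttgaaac
Cldn11: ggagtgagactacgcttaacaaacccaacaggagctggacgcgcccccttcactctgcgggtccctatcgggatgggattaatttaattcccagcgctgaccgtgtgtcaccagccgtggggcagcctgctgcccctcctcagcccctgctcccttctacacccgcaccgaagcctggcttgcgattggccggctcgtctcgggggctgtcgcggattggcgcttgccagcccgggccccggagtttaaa
Fshr: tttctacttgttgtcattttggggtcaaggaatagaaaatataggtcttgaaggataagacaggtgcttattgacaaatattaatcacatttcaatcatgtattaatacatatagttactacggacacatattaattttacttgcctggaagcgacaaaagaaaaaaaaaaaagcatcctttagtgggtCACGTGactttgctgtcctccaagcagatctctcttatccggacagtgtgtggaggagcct

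Shbg held an AGATAA match and an AGAACA match, Gja1 held an AGATAA match and 2 TGACG matches, Fshr held a CACGTG match, and the Cldn11 stretch held none of these letters. Promoter entries were found for 21 of the 30 members. AGATAA was in 2 of the 21 (9.52%) and in 10.3% of 27025 genes' promoters of the same length, and TGATAA in 9.52% and 8.16%. AACAAT was in 9.52% and 9.65%, ACAAAG in 14.3% and 16.5%, TGACG in 14.3% and 17.9%, CACGTG in 9.52% and 6.05%, and AGAACA in 9.52% and 16.2%. These shares describe letters in a short window and not binding.

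In Nkapl knockout testis, 19 of the 30 Sertoli genes rose and 1 fell. The rises were small, between 0.18 and 0.50 on the log2 scale, and Shbg, Amh, Sox9, Inha and Gata1 led them. The 30 genes had a median log2 difference of 0.23, against 0.01 over all 16937 genes tested. Of all genes 43.9% were called, 17.8% higher and 26.1% lower. The 2 groups of libraries did not overlap for 24 members, 22 with both knockout libraries above every wild-type library (29.5% of all genes) and 2 with both below (32.9% of all genes). These calls rest on grouping the libraries by heading: grouped by file record, which puts wild type 3 among the knockouts, 0 members and 0 of all genes were called. Wild type 3 measured 79.9 CPM of Nkapl, beside 74.9 and 79.5 CPM in the other wild types and 60.8 and 57.8 CPM in the knockouts. Rn45s took 3.97% of its counts, beside 3.96 and 3.97% in the other wild types and 5.53 and 5.29% in the knockouts. In bulk testis, fewer or more cells of a type and less or more RNA per cell cannot be told apart.

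**Figure D1:**
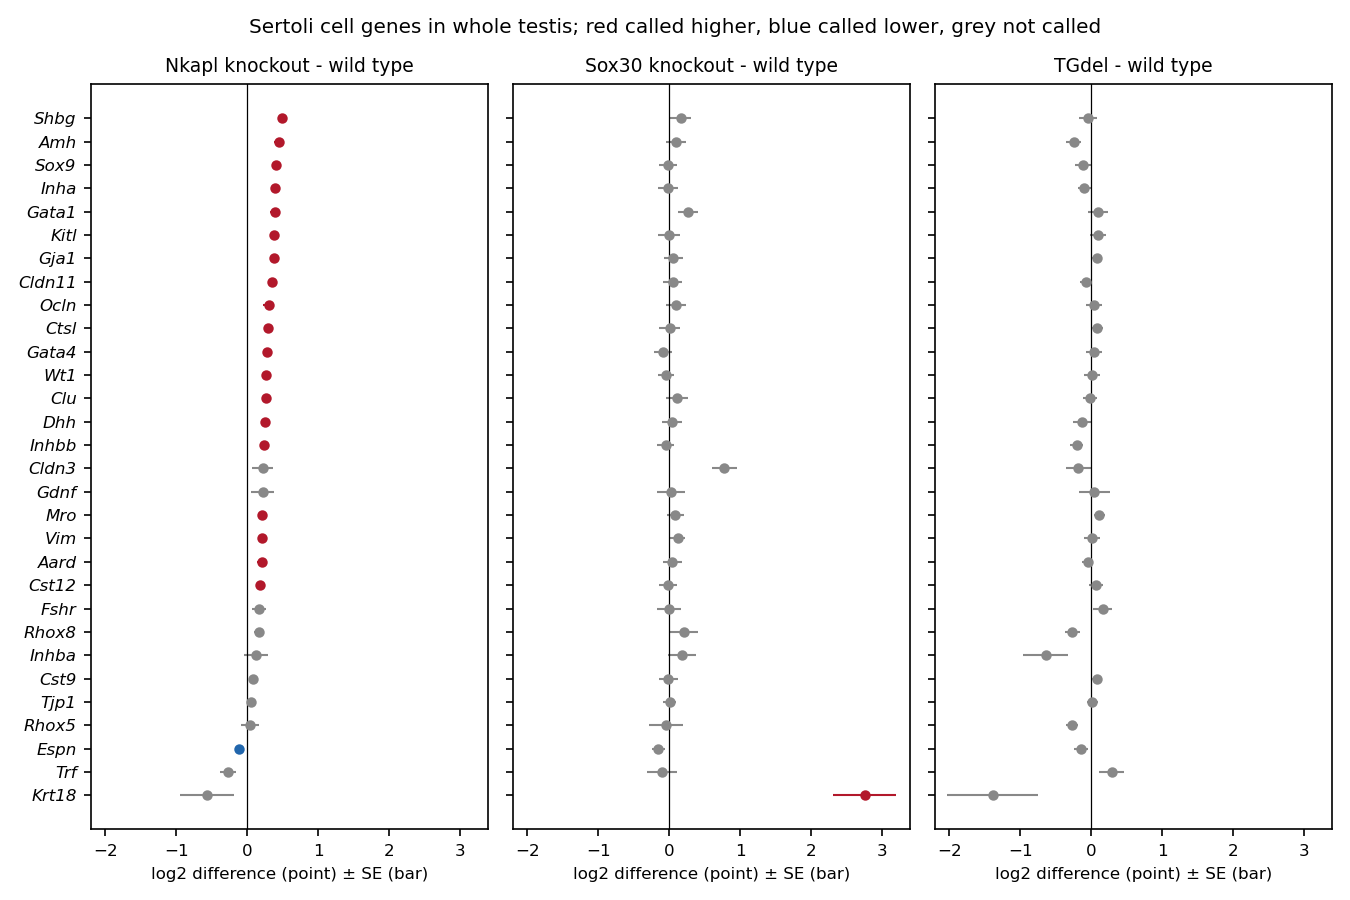
Log2 differences (points) with their standard errors (bars) for the 30 Sertoli genes in the 3 whole-testis comparisons, ordered by the Nkapl difference. In the Nkapl set 19 genes rose by 0.18 to 0.50, in the Sox30 set Krt18 alone rose (2.76), and in the TGdel set none was called.

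Of 7 genes for signals that Sertoli cells send, 5 rose. Kitl encodes stem cell factor, the ligand of the KIT receptor on differentiating spermatogonia, and measured 66.0, 66.5 and 69.5 CPM in wild-type and 88.2 and 86.4 CPM in knockout testis. Both knockout libraries lay well above the 3 wild types, and the log2 difference was 0.37 ± 0.04 (SE, adjusted p = 2.07e-06). Amh, the hormone that makes the Müllerian duct regress and that falls as Sertoli cells mature, went from 17.3, 16.2 and 16.9 CPM to 22.7 and 23.1 CPM. The knockout values were close together and above the wild types (0.45 ± 0.08, adjusted p = 0.000104). Inha, the alpha subunit of inhibin, which holds back follicle-stimulating hormone, went from 153, 136 and 142 CPM to 182 and 196 CPM. The groups did not overlap (0.40 ± 0.05, adjusted p = 2.25e-06). Inhbb, a beta subunit that inhibin and activin share, went from 70.8, 68.5 and 67.9 CPM to 80.9 and 82.7 CPM, again without overlap (0.24 ± 0.04, adjusted p = 0.00022). Dhh, the hedgehog ligand that acts on Leydig and peritubular cells, went from 37.3, 39.3 and 40.0 CPM to 43.7 and 48.7 CPM (0.25 ± 0.06, adjusted p = 0.00237). Its groups were close, and without knockout 2 the call was lost (adjusted p = 0.0992, range over alternatives 0.000403 to 0.148). Such ranges here do not include grouping by file record. Dhh exons overlap those of Rhebl1 and Gm49442, and the strand setting of the counting is not given in the sources used here.

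The remaining signals, Gdnf and Inhba, and the receptor gene Fshr did not pass. Gdnf, which maintains spermatogonial stem cells, measured 3.50, 4.51 and 4.20 CPM in wild-type and 4.38 and 5.05 CPM in knockout testis, with overlapping groups (0.22 ± 0.16, adjusted p = 0.303). Inhba differed by 0.13 ± 0.16 (adjusted p = 0.568) at 3.49 to 4.18 CPM. Fshr, through which follicle-stimulating hormone acts on these cells, measured 13.6, 11.7 and 12.1 CPM in wild-type and 13.0 and 14.9 CPM in knockout testis. The highest wild type lay between the knockouts (0.17 ± 0.10, adjusted p = 0.198).

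Of the transcription factors, Sox9, Gata1, Gata4 and Wt1 rose and the 2 Rhox homeobox genes did not pass. Sox9, the switch gene of Sertoli cell fate, went from 65.7, 62.6 and 62.6 CPM to 82.2 and 87.1 CPM. The gap between the groups exceeded the spread within either (0.41 ± 0.05, adjusted p = 1.13e-06). Gata1, which in adult testis is seen in Sertoli cells of certain tubule stages, went from 25.2, 24.4 and 24.7 CPM to 31.3 and 33.6 CPM (0.39 ± 0.06, adjusted p = 8.61e-05). Gata4, needed for gonad formation and for later Sertoli function, went from 51.6, 53.9 and 51.2 CPM to 59.4 and 66.6 CPM (0.27 ± 0.06, adjusted p = 0.000555). Wt1, which keeps Sertoli cells from losing their identity, went from 113, 107 and 105 CPM to 127 and 134 CPM (0.27 ± 0.04, adjusted p = 8.43e-05). In all 4 genes every knockout library stood above every wild type. Rhox5 differed by 0.05 ± 0.13 (adjusted p = 0.802) with overlapping groups, and its neighbour in the X-linked homeobox cluster, Rhox8, by 0.17 ± 0.08 (adjusted p = 0.0859).

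The junction and cytoskeletal genes were divided. Gja1, which encodes the gap junction protein connexin 43 between Sertoli cells and germ cells, went from 89.5, 89.1 and 93.5 CPM to 117 and 118 CPM. Cldn11, a claudin of the blood-testis barrier, went from 136, 127 and 136 CPM to 167 and 172 CPM. Both had wide gaps between the groups, with log2 differences of 0.37 ± 0.04 (adjusted p = 8.22e-07) for Gja1 and 0.35 ± 0.04 (adjusted p = 1.61e-06) for Cldn11. Ocln, the tight junction protein occludin, went from 20.03, 18.1 and 19.1 CPM to 23.7 and 23.4 CPM (0.31 ± 0.08, adjusted p = 0.00305). Vim, the intermediate filament protein vimentin of mesenchymal and Sertoli cells, went from 182, 178 and 174 CPM to 200 and 212 CPM (0.21 ± 0.04, adjusted p = 0.000254). Both kept the knockouts above the wild types. Tjp1, the scaffold protein ZO-1, measured 225, 235 and 225 CPM against 230 and 244 CPM, with overlap (0.05 ± 0.04, adjusted p = 0.282). Cldn3, a claudin of newly formed junctions, differed by 0.22 ± 0.15 (adjusted p = 0.245), and Krt18 by -0.57 ± 0.39 (adjusted p = 0.254) at 10 to 19 counts per library.

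Espn was the member that fell. It encodes espin, an actin-bundling protein of the ectoplasmic specialisation, the junction that holds spermatids to the Sertoli cell. It measured 216, 207 and 213 CPM in wild-type and 192 and 199 CPM in knockout testis, without overlap, a log2 difference of -0.12 ± 0.04 (adjusted p = 0.0181). The call was lost without wild type 3 (adjusted p = 0.08), without knockout 1 (adjusted p = 0.149) and with libraries scaled by their totals (adjusted p = 0.265), and over the alternatives the adjusted p ran from 0.00954 to 0.477.

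Secreted and lysosomal products mostly rose. Shbg, the androgen-binding protein of Sertoli cells, had the largest rise, from 43.0, 45.2 and 40.5 CPM to 63.9 and 57.6 CPM. The lowest knockout exceeded the highest wild type by more than the range of the wild types (0.50 ± 0.06, adjusted p = 2.1e-06). Clu went from 1022, 1019 and 998 CPM to 1181 and 1245 CPM (0.26 ± 0.03, adjusted p = 5.47e-06). Ctsl, a lysosomal and secreted protease, went from 277, 250.1 and 261 CPM to 319 and 324 CPM (0.29 ± 0.04, adjusted p = 1.46e-05), and its exons overlap Gm49230 and Gm47123. Cst12 went from 48.4, 48.9 and 49.2 CPM to 56.0 and 54.8 CPM (0.18 ± 0.05, adjusted p = 0.00654). These groups were all separate. Its close neighbour on chromosome 2, Cst9, differed by 0.09 ± 0.04 (adjusted p = 0.125), with adjusted p = 0.0452 without wild type 1 (range over alternatives 0.00965 to 0.425). Mro, known from the developing male gonad, went from 78.3, 79.8 and 81.1 CPM to 88.7 and 95.7 CPM (0.21 ± 0.05, adjusted p = 0.001).

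For Aard and Trf the call turned on single libraries. Aard went from 116, 99.4 and 101 CPM to 127 and 116 CPM, with the lower knockout barely above the highest wild type (0.20 ± 0.06, adjusted p = 0.00866). It was not called without wild type 3 (adjusted p = 0.0702) or without knockout 1 (adjusted p = 0.122), with adjusted p from 4.22e-06 to 0.137 over the alternatives. Trf encodes the iron carrier transferrin that Sertoli cells pass to germ cells. It measured 21.6, 16.1 and 19.4 CPM against 14.4 and 17.0 CPM, with overlap (-0.27 ± 0.11, adjusted p = 0.0537). Without wild type 2 it was called lower (-0.38, adjusted p = 0.00148), and without knockout 2 as well (-0.41, adjusted p = 0.0432), within a range of 0.00148 to 0.434. Trf exons overlap Gm20425.

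**Figure D2:**
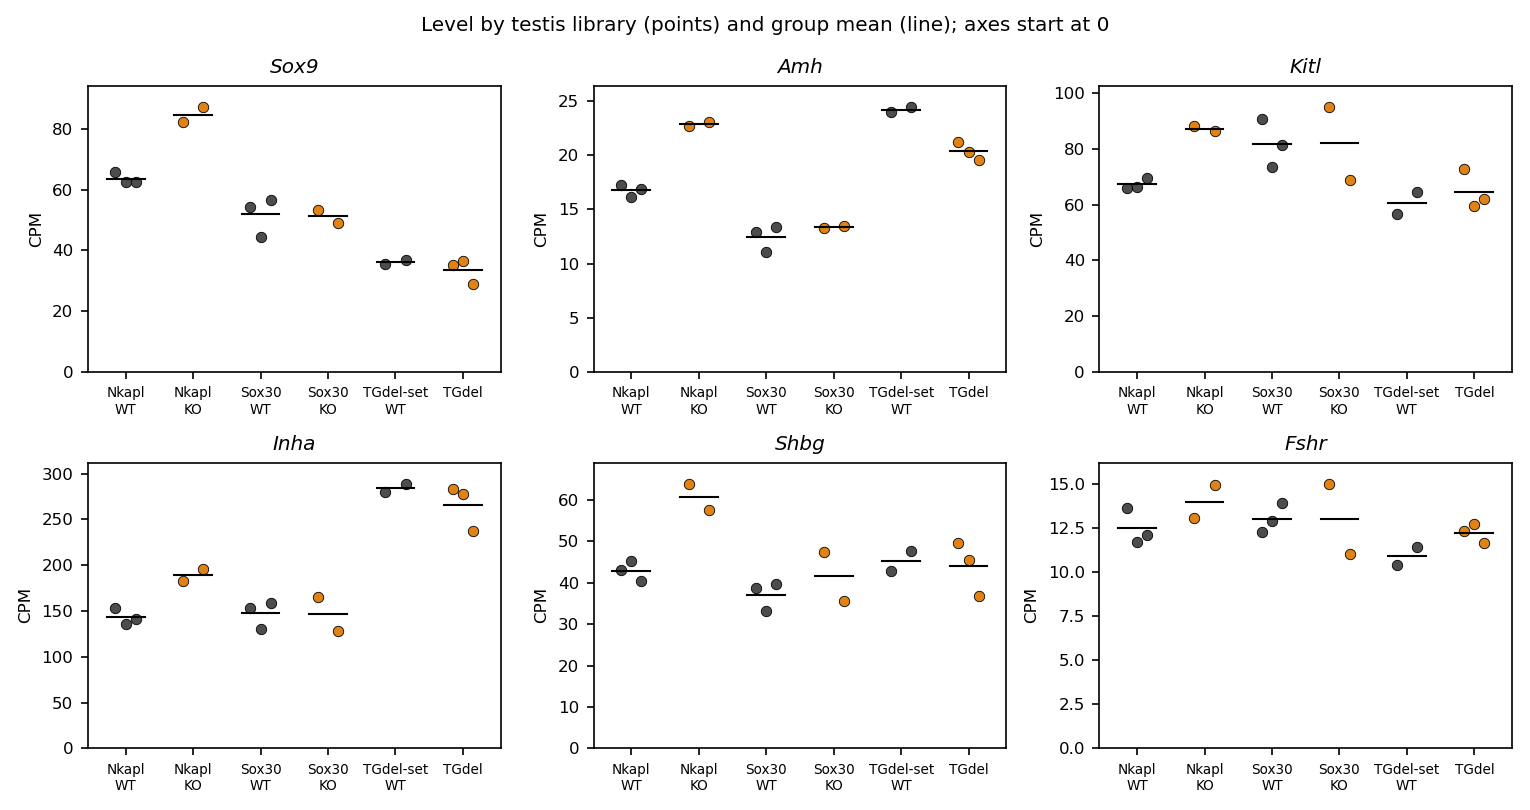
CPM of 6 Sertoli genes in each testis library (points) with the group mean (line), in the Nkapl, Sox30 and TGdel sets, each set scaled on its own. In the Nkapl set both knockout points stand above the wild types for Sox9, Amh, Kitl, Inha and Shbg, and for Fshr the groups overlap.

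Other genes of the same pathways, listed by function, had mostly risen where they were called, beside 17.8% of all genes higher and 26.1% lower. Of 12 further transcription regulators of Sertoli cells 7 rose and 0 fell, among them Dmrt1 (log2 difference 0.30 ± 0.05), which keeps the male fate, and the retinoic acid receptor gene Rara (0.27 ± 0.05). Of 15 genes of activin, inhibin and TGF-beta signalling 8 rose and 0 fell, including the signal carrier Smad3 (0.50 ± 0.08) and the receptor gene Tgfbr1 (0.18 ± 0.04). Of 9 genes of phagocytosis and lipid uptake 5 rose, including the receptor tyrosine kinase genes Tyro3 (0.29 ± 0.04) and Axl (0.26 ± 0.04), and 0 fell.

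The lists of junction, growth factor, retinoid and transport genes were called in both directions or in few members, some at shares near those of all genes. Of 21 further junction genes 9 rose and 3 fell, and the smallest p-values belonged to falls of Plec (-0.35 ± 0.03), a cytoskeletal linker, and Nectin3 (-0.34 ± 0.04), an adhesion molecule of spermatids at the Sertoli junction. Of 10 growth factors and niche signals 3 rose, including Wnt5a (0.61 ± 0.11) and Igf1 (0.28 ± 0.07). Of 7 retinoid supply genes the vitamin A transporter gene Stra6 rose (0.52 ± 0.09) and the retinol esterifying enzyme gene Lrat fell (-0.59 ± 0.13). Of 5 lactate and sugar transport genes 2 rose, including the lactate exporter gene Slc16a3 (0.87 ± 0.09), and 2 fell, including the lactate dehydrogenase gene Ldha (-0.37 ± 0.04). The transport list summed to 2149 to 2243 CPM in wild-type and 1867 and 1951 CPM in knockout testis. Scaled apart, it summed to 3976 to 4023 CPM in sorted spermatocytes labelled wild type. The junction list summed to 3191 to 3276 CPM in wild-type and 2983 and 2986 CPM in knockout testis. In sorted wild-type spermatids, scaled apart, it summed to 2440 to 2485 CPM. In which cells these genes changed was not tested.

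Markers of germ cells and of other somatic cells moved to different degrees in the same libraries. The 10 spermatid markers summed to 211.5 to 261 CPM in wild-type and 69.6 and 71.6 CPM in knockout testis, with 8 of 10 lower, and 12 spermatogonial markers to 529 to 556 CPM and 489 to 492 CPM, although 6 of the 11 tested rose and 1 fell (median log2 difference 0.36). The 30 Sertoli genes together summed to 3118 to 3214 CPM in wild-type and 3638 and 3786 CPM in knockout testis. Leydig cell markers summed to 172 to 214 CPM and 141 to 168 CPM, with 2 of 8 lower (Cyp17a1 and Hsd3b6). Median log2 differences were 0.00 for 10 spermatocyte markers (1 rose, 4 fell) and 0.03 for 8 peritubular myoid markers (3 rose, 1 fell). The medians were -0.05 for 8 macrophage markers (0 rose, 1 fell) and 0.09 for 8 endothelial markers (1 rose, 0 fell). The spermatogonial markers also summed to 1117 to 1137 CPM in sorted wild-type spermatids. Rn45s took 3.96 to 3.97% of counts in wild type and 5.29 to 5.53% in knockout. The part of these shifts in the Sertoli values was not tested. Scaling by library totals called 22 members higher, and among all genes called it moved the share that rose from 40.5% to 54.7%. A joint fit of all testis libraries called 9 members higher. It lost the calls of Clu, Ctsl, Gata4, Wt1, Dhh, Inhbb, Aard, Cst12, Mro and Vim (adjusted p from 0.0514 to 0.168) and that of Espn (adjusted p = 0.477).

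The Sox30 comparison asks what the loss of this germ cell transcription factor does to the same tissue. Of the 30 Sertoli genes, Krt18 rose and none fell, where 0.505% of 17816 genes rose and 1.92% fell (2.42% in all). The median log2 difference was 0.03, against 0.00 over all genes. In 27 of 30 genes the knockout and wild-type libraries overlapped, 2 were higher in both knockouts (9.85% of all genes) and 1 was lower (11.1%). The standard errors were wider than in the Nkapl set, with a median of 0.14 against 0.05. Between 2 libraries of a group, the chi-square of the counts per degree of freedom measures spread beyond counting noise and grows with depth. It ran from 10.55 to 41.95 in the Sox30 set, 1.93 to 4.196 in the Nkapl set and 1.403 to 4.853 in sorted pairs. Numbers of calls alone therefore do not compare the effects of the sets. Whether the low Nkapl values are technical spread was not tested.

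The defining genes did not pass in either direction. Sox9 measured 54.3, 44.5 and 56.6 CPM in wild-type and 53.4 and 49.0 CPM in Sox30 knockout testis (-0.02 ± 0.13, adjusted p = 1), and Amh 12.9, 11.03 and 13.4 CPM against 13.3 and 13.5 CPM (0.10 ± 0.14, adjusted p = 1). Kitl measured 90.8, 73.7 and 81.4 CPM against 95.03 and 69.0 CPM, with the knockouts on either side of the wild types (0.00 ± 0.16, adjusted p = 1). Gdnf measured 3.52, 3.13 and 3.76 CPM against 3.63 and 3.43 CPM (0.03 ± 0.19, adjusted p = 1). Fshr measured 12.3, 12.9 and 13.9 CPM against 15.01 and 11.01 CPM, again on either side (-0.00 ± 0.17, adjusted p = 1). Among the further pathway lists, the adhesion gene Cdh2 fell (-0.70 ± 0.09, adjusted p = 0.00869), and no other listed gene was called.

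Krt18, a keratin of simple epithelia that Sertoli cells carry before maturity, measured 0.472, 0.649 and 0.611 CPM in wild-type and 2.11 and 5.74 CPM in Sox30 knockout testis. Both knockouts were above the wild types, knockout 2 most, with 79 and 206 counts against 19 to 22 (2.76 ± 0.45, adjusted p = 0.0255). The call was lost without wild type 1 (2.63, adjusted p = 0.154), without wild type 2 (2.86, adjusted p = 0.0707) and without knockout 2 (1.87, adjusted p = 0.113), and over the alternatives the adjusted p ran from 1.92e-11 to 0.154. Cldn3, also found in many epithelia, measured 4.81, 4.43 and 5.15 CPM against 7.29 and 9.17 CPM. Its groups were separate as well, without a call by edgeR (0.78 ± 0.18, adjusted p = 0.0916) and with one by DESeq2 (0.77, adjusted p = 0.0161, range over alternatives 0.00121 to 0.37).

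Genes of the epididymis, the duct attached to the testis, stood out in the same 2 knockout libraries. The 13 epididymal genes found summed to 5.91 to 7.85 CPM in wild-type and 68.2 and 107.6 CPM in Sox30 knockout testis, and 5 of the 6 tested rose, with Crisp1 and Adam7 higher by 9.03 ± 0.46 and 7.17 ± 0.32. The epididymal sum was highest in the library in which Krt18 and Cldn3 were highest. Since both knockout libraries carry these transcripts and no wild type does to that degree, the genotype and the epididymal transcripts cannot be told apart for Krt18 and Cldn3. The 10 spermatid markers summed to 175 to 418 CPM in wild-type and 58.3 to 101 CPM in knockout testis.

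**Figure D3:**
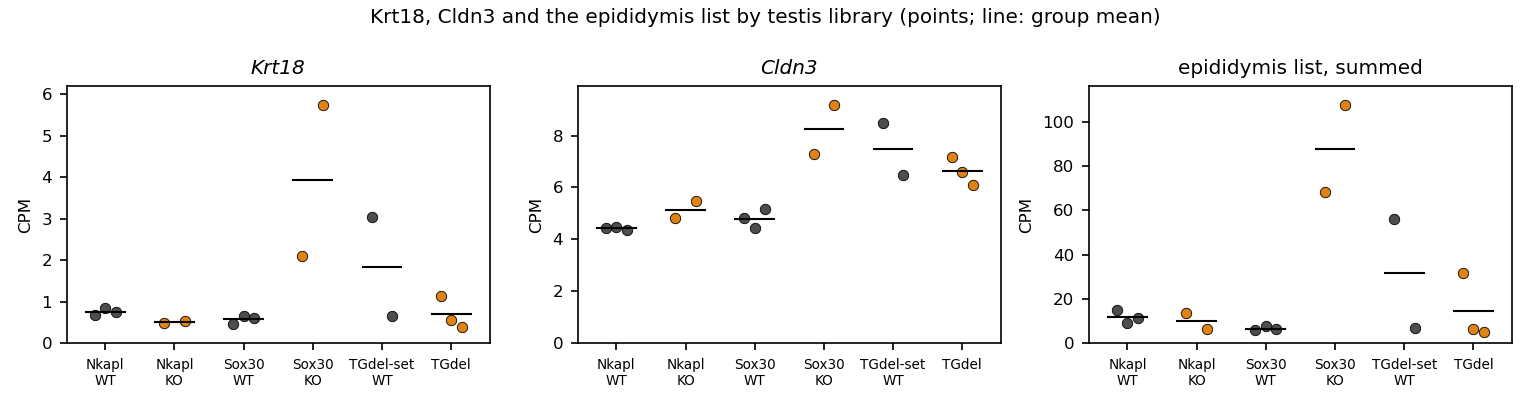
CPM of Krt18, of Cldn3 and of 13 epididymal genes summed, in each testis library (points) with the group mean (line). The Sox30 knockout libraries, at 68.2 and 107.6 CPM of epididymal transcripts, are also the highest of their set for Krt18 and Cldn3, and wild type 1 of the TGdel set stands out in the same way.

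In TGdel testis edgeR called 0 of the 30 Sertoli genes higher and 0 lower, with 3 at an unadjusted p under 0.05 (Rhox5, Rhox8 and Amh, all lower). DESeq2 also called 0. Of 16011 genes tested, 0.2% rose and 1.05% fell, 1.25% in all. The median log2 difference of the 30 genes was -0.00, against 0.00 over all genes, and the groups overlapped in 23 of 30, with 2 separate and higher (16.1% of all genes). The standard errors had a median of 0.11, and the chi-square of counts per degree of freedom ran from 6.494 to 16.85.

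Rhox5 measured 34.1 and 37.2 CPM in wild-type and 30.4, 29.1 and 29.2 CPM in TGdel testis, with all 3 mutants below both wild types (-0.27 ± 0.09, adjusted p = 0.189). Rhox8 measured 29.4 and 34.9 CPM against 26.7, 28.3 and 25.3 CPM (-0.27 ± 0.11, adjusted p = 0.288). Amh measured 24.0 and 24.5 CPM against 21.3, 20.3 and 19.6 CPM (-0.25 ± 0.10, adjusted p = 0.289). All 3 genes were separate in the same direction, as were Inhbb (-0.21 ± 0.09) and Inhba (-0.64 ± 0.32, 20 to 45 counts), which makes 5 of 30 with every mutant below every wild type, beside 17.3% of all genes. Sox9 measured 35.6 and 37.0 CPM against 35.3, 36.3 and 28.9 CPM (-0.11 ± 0.11, adjusted p = 0.707). TGdel 3, whose heading and record disagree, gave the low value. Kitl measured 56.6 and 64.4 CPM against 72.8, 59.4 and 61.9 CPM (0.10 ± 0.11, adjusted p = 0.742). Fshr measured 10.4 and 11.4 CPM against 12.3, 12.7 and 11.6 CPM (0.16 ± 0.13, adjusted p = 0.626), with every mutant above both wild types. Gdnf measured 2.98 and 3.30 CPM against 3.13, 3.62 and 2.99 CPM (0.05 ± 0.22, adjusted p = 0.956).

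Krt18 measured 3.04 CPM in wild type 1 and 0.661 CPM in wild type 2, and 1.14, 0.565 and 0.403 CPM in the TGdel libraries. The highest 2 values belonged to the libraries with epididymal transcripts, wild type 1 (a sum of 56.2 CPM) and TGdel 1 (31.7 CPM). The log2 difference was -1.39 ± 0.65 (adjusted p = 0.353), and -0.44 (adjusted p = 0.96) without those 2 libraries, a comparison added after the values were seen.

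Differences between the effects were tested directly, in a fit of all testis libraries. The sets share no libraries. Of the 30 genes, Krt18 differed between the Nkapl and Sox30 effects (-3.30 ± 0.82, adjusted p = 0.0368), where 3.55% of all genes were lower and 0.283% higher (3.84% in all). Of 10 fits with a library left out the call held in 2, those without Sox30 wild type 2 or Sox30 knockout 1, and it was lost without any other library of the 2 sets (adjusted p from 0.00465 to 0.203 over the alternatives). The Nkapl effect exceeded the Sox30 effect in 25 of 30 members, with a median of 0.21 against 0.02 over all genes. The genes that rose in the Nkapl set did not pass this test. Sox9 came to 0.46 ± 0.14 (adjusted p = 0.106) and Inha to 0.44 ± 0.16 (adjusted p = 0.164). Without Sox30 wild type 2, 5 members were called higher, Sox9 (0.56), Amh (0.46), Cldn11 (0.43), Gata4 (0.48) and Inhbb (0.42). Without Sox30 knockout 1, Kitl (0.65), Gja1 (0.54) and Inha (0.64) were.

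Between the Nkapl and TGdel effects, Amh differed (0.71 ± 0.13, adjusted p = 0.0478), where 0.0283% of all genes were higher and 0.266% lower (0.295% in all). Its Nkapl libraries rose to 22.7 and 23.1 CPM while its TGdel libraries lay below their wild types. The call held in 1 of 10 fits with a library left out, the one without TGdel 1, and the adjusted p ran from 0.000893 to 0.606 over the alternatives. Sox9 came to 0.54 ± 0.15 (adjusted p = 0.0964) and Shbg to 0.56 ± 0.18 (adjusted p = 0.138). The Nkapl effect exceeded the TGdel effect in 29 of 30 members, with a median of 0.29 against -0.03 over all genes.

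Sertoli transcripts in sorted germ cells bound the somatic RNA that such libraries carry, though carry-over and a germ cell's own expression of a member cannot be told apart in these counts. The 10 spermatid markers summed to 8734 to 8954 CPM in wild-type spermatids and to 2726 to 2791 CPM in spermatocytes labelled wild type. Scaled together with the 15 testis libraries, the members stood at a median of 15.7% of their mean level in wild-type testis in spermatocytes labelled wild type and 10.6% in those labelled knockout. The medians were 4.30% in wild-type and 4.81% in knockout spermatids. By library totals, these medians were 11.2%, 7.76%, 2.48% and 2.88%. In wild-type spermatids 25 of 30 members were under 10% of the testis level. The testis mean pools the wild types of the 3 sets, which ran from 4.39 to 32.7 CPM for Rhox5 and 85.4 to 372 CPM for Aard. The percentages of such genes need not hold within each set.

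Of the defining genes, Fshr stood at 1.10% of its testis level in wild-type spermatids (1 to 2 counts), Sox9 at 1.12% (5 to 8 counts), Kitl at 2.28% (17 to 19 counts), Amh at 2.38% (3 to 6 counts) and Gdnf at 34.9% (11 to 17 counts). In spermatocytes labelled wild type they stood at 13.0%, 10.6%, 8.84%, 15.1% and 23.1%. All but Gdnf stood higher in spermatocytes than in spermatids. Gja1 (0.76%, 7 to 10 counts) and Shbg (0.976%, 3 to 6 counts) were low in spermatids as well, and stood at 14.1% and 11.05% in spermatocytes.

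Tjp1 and Krt18 stood highest of the 30 in spermatids. Tjp1 stood at 63.6% of the testis level in spermatocytes labelled wild type and at 115% in wild-type spermatids, with 2359 to 2533 counts in the latter. Krt18 stood at 79.3% and 126%, at 8 to 15 counts. Its testis mean of 0.824 CPM includes 2.58 CPM in wild type 1 of the TGdel set, a library with epididymal transcripts. The other wild types had 0.398 to 0.722 CPM. In knockout spermatids Krt18 stood at 308% (29 to 35 counts) and Tjp1 at 91.0%. Espn stood at 21.9% in spermatocytes and 10.2% in spermatids, and Trf at 20.6% and 7.20%.

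**Figure D4:**
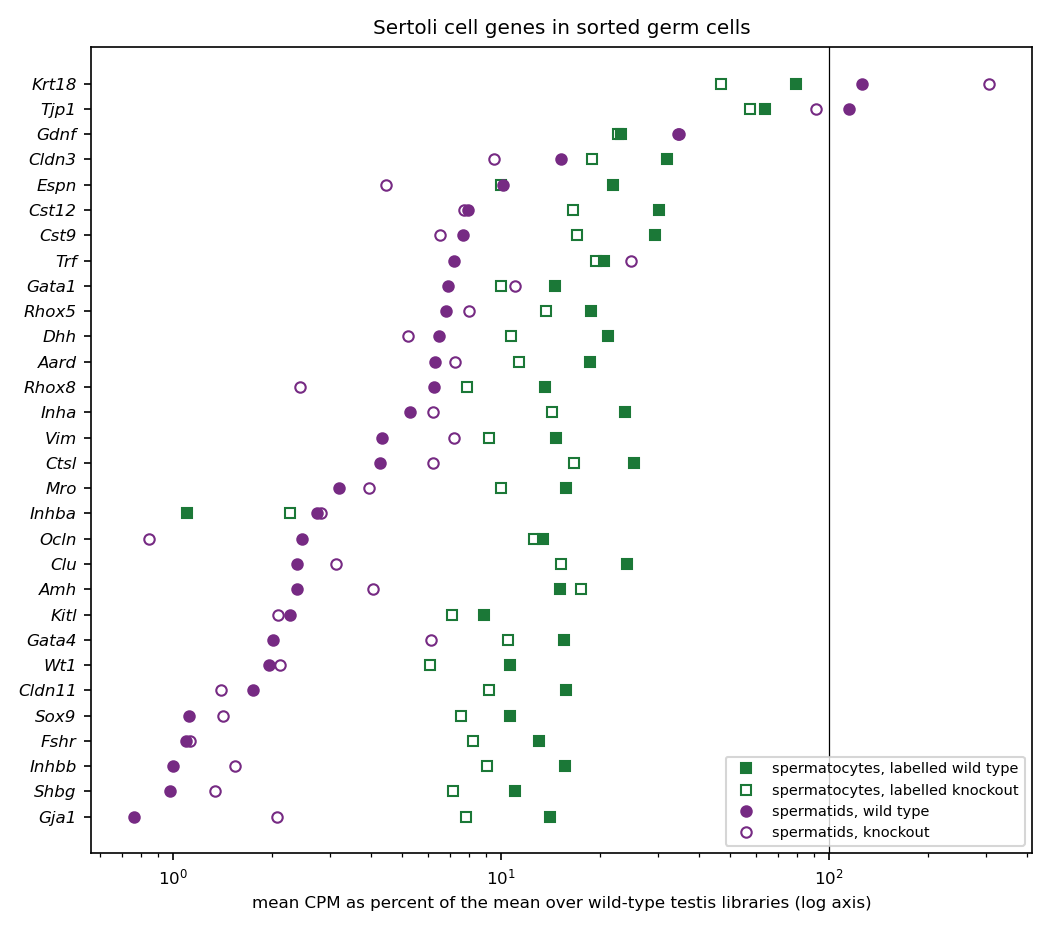
Mean CPM of each Sertoli gene in the 4 sorted groups as a percent of its mean over the wild-type testis libraries, on a log axis, ordered by wild-type spermatids, with a line at 100%. Most members lie near 10 to 30% in spermatocytes labelled wild type and under 10% in spermatids, while Tjp1 and Krt18 lie near or above the line in spermatids. In spermatocytes labelled knockout 14 of the 30 lie under 10%.

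Lower levels in spermatids tended to go with higher log2 differences in Nkapl knockout testis, with exceptions such as Fshr (1.10%, 0.17) and Gata1 (6.90%, 0.39). For the 30 genes, the level in wild-type spermatids was taken as percent of the testis mean pooled over the 3 sets. Its Spearman's rho with the testis log2 difference was -0.63. Pearson's r, with the percent on a log2 scale, was -0.65. Without Krt18 and Tjp1 the rho was -0.55. For spermatocytes labelled wild type the rho was -0.43. These are correlations across genes of the same libraries, and genes are not independent replicates.

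In spermatocytes, 17 of 29 members tested fell in the libraries labelled knockout and 0 rose, where 25.7% of 15805 genes fell and 33.6% rose, 59.2% in all. Of all 30, 21 had both libraries labelled knockout below both labelled wild type (34.2% of all genes) and 1 had them above (43.7%). The median was -0.54, against 0.07 over all genes. Clu measured 168 and 179 CPM in the libraries labelled wild type and 119 and 119 CPM in those labelled knockout (-0.54 ± 0.05, adjusted p = 1.08e-09), and Espn 24.7 and 25.04 CPM against 11.6 and 13.2 CPM (-1.004 ± 0.10, adjusted p = 7.52e-10). The groups were separate for both. Falls of the others called ran to -0.44. Amh (0.34 ± 0.26), Ocln (0.04 ± 0.23), Trf (0.05 ± 0.18) and Tjp1 (-0.02 ± 0.07) did not pass. Neither did Sox9, Kitl, Fshr, Gdnf, Gata1, Cldn3, Rhox5 and Krt18. Inhba, at 0 or 1 count, was not tested.

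Listed markers of other somatic cells moved either way, and their expression in germ cells themselves was not tested. Peritubular myoid markers summed to 130.2 to 139.4 CPM in spermatocytes labelled wild type and 70.7 to 71.9 CPM in those labelled knockout, with 2 of 7 lower and 0 higher. Leydig cell markers summed to 45.2 to 45.9 CPM in spermatocytes labelled wild type and 65.6 to 70.1 CPM in those labelled knockout, with 5 of 7 higher, while the 30 Sertoli genes summed to 523 to 532 CPM and 379 to 382 CPM. Spermatid markers fell in 10 of 10 cases, from 2726 to 2791 CPM to 1136 to 1162 CPM. Their part in the result was not tested, and the direction rests on labels that the Nkapl level goes against. Of the 17 falls, 13 were called in each of the 4 fits with a library left out. Gata4 was lost without wild type 2 (-0.18, adjusted p = 0.474) or knockout 1 (-0.34, adjusted p = 0.201), and Mro without knockout 1 (-0.35, adjusted p = 0.0991). Rhox8 was lost without wild type 1, wild type 2 or knockout 2 (adjusted p to 0.255), and Shbg without wild type 2, knockout 1 or knockout 2 (adjusted p to 0.264). DESeq2 did not call these 4 either (adjusted p from 0.06 to 0.31). Tjp1 was called lower without wild type 2 (-0.14, adjusted p = 0.0496). By library totals the share of called genes that rose moved from 56.6% to 45.8%.

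In spermatids, 7 of 29 members rose in knockout and 3 fell, where 29% of 15805 genes rose and 31% fell, 60% in all. The members' share of calls was below that background, but many members had few counts in spermatids. Amh had 3 to 10, Sox9 5 to 9 and Shbg 3 to 7 per library, while Clu had 291 to 399. The median standard error was 0.32, so the lower share is not read as a result about these genes. Of all 30, 9 were separate and higher (40.5% of all genes) and 9 separate and lower (39.3%). Gata4 measured 0.759 and 0.52 CPM in wild-type and 1.83 and 1.89 CPM in knockout spermatids (1.53 ± 0.34, adjusted p = 0.000312). Trf measured 1.23 and 1.21 CPM against 3.72 and 4.36 CPM (1.72 ± 0.23, adjusted p = 2.47e-07). Both had clear gaps at low levels. Krt18 rose from 0.701 and 0.867 CPM to 2.01 and 1.66 CPM (1.22 ± 0.32), and Clu, Ctsl, Gja1 and Vim rose by 0.34 to 1.37. Tjp1 fell from 148 and 136 CPM to 106 and 110.2 CPM (-0.39 ± 0.06, adjusted p = 5.22e-06) and Espn from 11.5 and 12.0 CPM to 4.01 and 5.85 CPM (-1.25 ± 0.14, adjusted p = 1.01e-08). Rhox8 fell as well (-1.40 ± 0.45).

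Listed markers of other somatic cells moved in both directions in the same libraries. Leydig cell markers summed to 9.08 to 9.69 CPM in wild-type and 23.8 to 25.5 CPM in knockout spermatids, with 7 of 7 higher, and macrophage markers to 16.4 to 16.8 CPM and 32.9 to 33.2 CPM, with 6 of 7 higher. Peritubular myoid markers summed to 301 to 307 CPM in wild-type and 137.6 to 139.8 CPM in knockout spermatids, with 3 of 7 lower and 0 higher. In wild-type testis of the Nkapl set, scaled apart, the myoid markers summed to 431 to 481 CPM. Leydig cell markers summed to 172 to 214 CPM there and macrophage markers to 113 to 131 CPM. For the myoid markers, carry-over and a germ cell's own expression cannot be told apart. The part of these other somatic markers in the Sertoli values was not tested. DESeq2 did not call Krt18 (adjusted p = 0.0573) or Rhox8 (adjusted p = 0.0671). Gja1 was lost without wild type 1 (1.12, adjusted p = 0.0572), Clu without knockout 1 (0.26, adjusted p = 0.0508) and Rhox8 without wild type 2 or knockout 2 (adjusted p to 0.0634), while Gata1 was called higher without knockout 2 (0.79, adjusted p = 0.043) and Ocln lower without knockout 1 (-2.49, adjusted p = 0.0499). By library totals the share of called genes that rose moved from 48.3% to 60.1%, and the median of all genes from 0.03 to 0.14.

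The 2 effects were also compared with each other, in a test added after the values were seen. Of 29 members tested, 11 had a higher effect in spermatids than in spermatocytes and 1 a lower one, where 9.02% of all genes were higher, 16.4% lower and 25.5% called in all. Gja1 (log2 difference of effects 2.09 ± 0.41, adjusted p = 0.000433) and Gata4 (1.97 ± 0.38, adjusted p = 0.000344) had the 2 highest values, and Tjp1 was lower (-0.37 ± 0.09, adjusted p = 0.00382), a call lost by library totals (adjusted p = 0.183). Leydig cell markers were higher in 5 of 7 cases, and their part was not tested. The spermatocyte side of this test carries the labels that the Nkapl level goes against.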

How the data were processed

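Counts per gene came from 26 files of mouse testis and sorted germ cells, deposited as raw whole-number counts for 24682 gene symbols. Per the submitters' processing notes the authors used HISAT2 2.1.0, HTSeq, DESeq2 and mm10, and per the labels' protocols the libraries were stranded total RNA made with a TruSeq kit. Which annotation and strand option the counting used is not stated in these sources. HTSeq's lines for no gene (18.8 to 24.6% of lines summed in sorted libraries) were left out.

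Libraries were grouped by column heading and a repeated library was counted once, which left 23. Every testis set had a fit of its own and the 8 sorted libraries shared another, with edgeR 4.0.16 (filterByExpr by group, trimmed mean of M-values scaling, quasi-likelihood F test, two-sided, Benjamini-Hochberg, threshold 0.05). The script was tested on simulated data. An SE is the log2 difference over the square root of F. CPM use edgeR's scaling factors within a set, or over all 23 libraries for percentages of the testis level. Lengths and positions come from GENCODE M21 (GRCm38) and promoters from RefSeq.

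The members and lists were chosen with earlier results of these data known. All 30 genes are named. Values in every library are given for those called in a testis comparison and for Sox9, Amh, Fshr, Kitl and Gdnf, and up to 2 called genes with the smallest p are named per further list, of which 1 is not reported here. Genes outside this rule (Inhba, Cldn3, Rhox5, Rhox8, Tjp1, Trf and members in sorted cells) were given values after these had been seen. Alternatives were DESeq2 1.42.0, 2 other scalings, no filter, a replicate block, a joint fit, other groupings and each library left out.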

Additional observations from a re-analysis of the deposited data

Results flagged for a closer look

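For 2 Sertoli genes the effects in 2 testis sets differed by a test of the difference itself. Krt18 had a log2 difference of -3.30 between the Nkapl and Sox30 effects, a call that held in 2 of 10 fits with a library left out, and both Sox30 knockout libraries also carried epididymal transcripts. Amh had a log2 difference of 0.71 between the Nkapl knockout and TGdel effects, a call that held in 1 of 10 such fits.

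In sorted cells, 12 members differed between the spermatid and the spermatocyte effect of the Nkapl knockout labels (log2, spermatids minus spermatocytes). This comparison was added after the values were seen. Gja1 (2.09), Gata4 (1.97), Krt18 (1.84), Trf (1.67), Vim (1.21), Gata1 (1.04), Ctsl (0.95), Clu (0.88), Inha (0.78), Aard (0.73) and Cst12 (0.65) were higher, and Tjp1 (-0.37) was lower. The spermatocyte effect rests on labels that the Nkapl level goes against. Leydig cell markers were higher in 5 of 7 cases in the same test, and their part was not tested. Of the 11 that were higher, 8 were called in each of the 8 fits with a library left out, and Gata1, Cst12 and Krt18 were not (adjusted p up to 0.143, 0.247 and 0.167). Tjp1 was lost without spermatid wild type 1 (adjusted p = 0.0862), without spermatid knockout 1 (adjusted p = 0.0604) and by library totals (-0.16, adjusted p = 0.183). Among all genes called, the share that was higher moved from 35.4% to 50.5% with DESeq2's size factors and to 78.9% by library totals, which also moved the median of all genes from -0.03 to 0.18.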

How the results depend on the processing

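In Nkapl knockout testis, 19 Sertoli genes also rose by DESeq2, with DESeq2's size factors and with the replicate block, and 18 to 20 with a library left out, where 17 of the 19 were called each time. The joint testis fit called 9 higher and 3351 of all genes, and grouping by file record called 0 and 0. The 1 fall became 0 by library totals, the block, the joint fit, libraries whose heading and record agree and grouping by record, became 2 without the filter, and ran from 0 to 2 with a library left out.

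In the Sox30 set the 1 rise became 2 by DESeq2, the block and the joint fit, 0 by file record, and 0 to 1 with a library left out. All genes called (432) became 765 by DESeq2, 1728 with the block, 896 in the joint fit, 693 where heading and record agree, 0 by record, and 20 to 693 with a library left out. In the TGdel set 0 members were called under each alternative run, while all genes called (200) became 301 by library totals, 576 by DESeq2, 88 without the filter, 0 with the block, 425 in the joint fit, 328 where heading and record agree, 0 by record, 313 without the libraries with epididymal transcripts, and 0 to 504 with a library left out.

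Between the Nkapl and Sox30 effects the 0 higher became 1 by DESeq2 and 0 to 5 with a library left out, the 1 lower became 0 where heading and record agree and by record, and 0 to 1 with a library left out, and all genes called (677) became 94, 0 and 79 to 1926. Between the Nkapl and TGdel effects the 1 higher became 0 with DESeq2's size factors, the block, heading and record agreeing and by record, 5 by DESeq2, and 0 to 1 with a library left out, and all genes called (52) became 6, 0, 0, 0, 784 and 0 to 581, with 100 without the filter and 186 without the libraries with epididymal transcripts. Between the sorted effects the 1 lower became 0 by library totals and 0 to 1 with a library left out, and all genes called (4025) became 2252 by DESeq2 and 2679 to 4449 with a library left out. By library totals the medians of sorted-cell levels moved from 15.7%, 10.6%, 4.30% and 4.81% to 11.2%, 7.76%, 2.48% and 2.88%. The cause of these changes was not tested.

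Replicate numbers were not shown to pair the libraries, with at most 2 pairs per comparison. Correlations of same-numbered deviations were 0.11 and 0.49 in the Sox30 set and -0.18 to 0.05 elsewhere. In the Sox30 set, where the block called more genes, pairing was not settled. With 2 libraries per sorted group both pairs must give the same value, so the check says little there. The block left the members called in sorted cells as they were (17 lower, 7 higher and 3 lower). Where leaving out a library left 1 in a group, that library was assumed to vary like the others. At 1 to 2 counts for Fshr in spermatids and 0 to 1 for Inhba in sorted cells, differences were not detectable at this depth.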
